A study of Mus musculus with 4 samples.

Results

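Stromal fibroblasts of the mouse testis at postnatal day 8 that carried most *Cd34*, *S100a6* and *Nrk* RNA are described here. They were 2065 droplet barcodes, 1118 from control and 947 from Cnot3-cKO mice, of 7008 stromal barcodes and of 17432 barcodes that held at least 8000 UMIs (unique molecular identifiers, each 1 counted RNA molecule) with at most 20% of them from mitochondrial genes. A barcode counted as stromal when *Col1a1*, *Col1a2*, *Col3a1* and *Dcn* made up at least 0.5% of its UMIs, the Sertoli cell genes *Cst12*, *Cst9*, *Rhox8*, *Amh* and *Aard* under 0.2%, *Ddx4* with *Dazl* fewer than 10 UMIs, and *Mki67* with *Top2a* fewer than 3. Scores A, B and C were then set against each other, each a share of UMIs divided by its mean over the stromal barcodes. Score A used *Acta2*, *Mgp*, *Col4a4* and *C1qtnf3*, score B used *Smoc2*, and score C used *Cd34*, *S100a6* and *Nrk*. The members are the barcodes with score C largest, and the others are called A-largest (2812 barcodes) and B-largest (2131). Members were thus selected on measured values, so their levels against the other classes are descriptions and were not tested.

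The study deleted *Cnot3*, a subunit of the CCR4-NOT complex that shortens the poly(A) tails of mRNAs, in germ cells. Control mice, labelled wild-type, were Cnot3 flox/flox, and Cnot3-cKO mice were Cnot3 flox/flox with Ddx4-creER, a tamoxifen-inducible Cre made from the germ cell gene *Ddx4*, so both genotypes carried the floxed alleles and the deletion was not aimed at the stroma. Both received 4-hydroxytamoxifen from postnatal day 1, and testis suspensions were sorted by CD9 and THY1. The 4 labelled samples, 2 for each genotype, lie in 2 matrices that merge the samples of a genotype, so there was 1 library per genotype, no replicate check and no test between genotypes. Every interval given is at the 95% level and reflects counting error alone.

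Testis stroma lies between the seminiferous tubules and around vessels, and holds fibroblasts, peritubular myoid cells, pericytes and the precursors of Leydig cells. In many organs fibroblasts with CD34 on their surface line the outer coat of vessels and the organ capsule, make the elastic fibre and collagen matrix, and are known for genes such as *Pi16*, *Dpt* and *Clec3b*. *Dlk1* and *Meg3* lie in 1 imprinted domain, which is active in fetal and perinatal mesenchyme.

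The 2 matrices held 181550221 UMIs in control and 168770743 in Cnot3-cKO. Members had a median depth of 12416 UMIs in control and 11371 in Cnot3-cKO, with medians of 3606.5 and 3373 detected genes, and were shallower than A-largest barcodes (14204 and 13240 UMIs) and B-largest barcodes (14448 and 13631 UMIs). Mitochondrial UMIs had medians of 5.07% and 5.01%. Of the barcodes of at least 8000 UMIs, 18 were found in both libraries, and none of them was a member in both. Scrublet called 16 control and 23 Cnot3-cKO members doublets, and these stayed in.

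The label was checked first. *Cd34* (a sialomucin of stromal, vascular and blood progenitor cells; chromosome 1, 194938819 to 194961279, GRCm38) stood at 786 CPM (UMIs per 1000000 UMIs of the class; 771 to 800) in control members and 777 (761 to 793) in Cnot3-cKO members, with 117 in A-largest barcodes of either library and 379 and 354 in B-largest. *S100a6*, a calcium-binding protein gene, stood at 1595 CPM (1575 to 1616) in control members and 1297 (1276 to 1318) in Cnot3-cKO members. *Nrk*, an X-linked kinase gene, was at 1020 and 1015 CPM. These 3 genes chose the members. The other markers of the label followed them. *Dlk1* (a membrane ligand that resembles Notch ligands; chromosome 12, 109452823 to 109463336) was at 1998 CPM (1975 to 2022) in control and 1854 (1829 to 1879) in Cnot3-cKO members, against 109 in A-largest barcodes of both libraries and 507 and 420 in B-largest. *Dcn*, which encodes the collagen-binding proteoglycan decorin and which the stromal gate also used, was at 6484 and 6902 CPM, against 1708 and 1908 in A-largest and 2826 and 2996 in B-largest barcodes. All 5 markers were therefore higher in members than in either other class, in both libraries. When each barcode was thinned to 8000 UMIs, *Dlk1* had a UMI in 97.2% of control and 97.0% of Cnot3-cKO members, and in 4.11% and 3.63% of 1118 control and 1789 Cnot3-cKO Sertoli barcodes, which should lack it. Unthinned, those shares were 98.0% and 97.7% in members, and 7.16% and 5.76% in Sertoli barcodes at median depths of 13180.5 and 12706 UMIs.

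**Figure D1:**
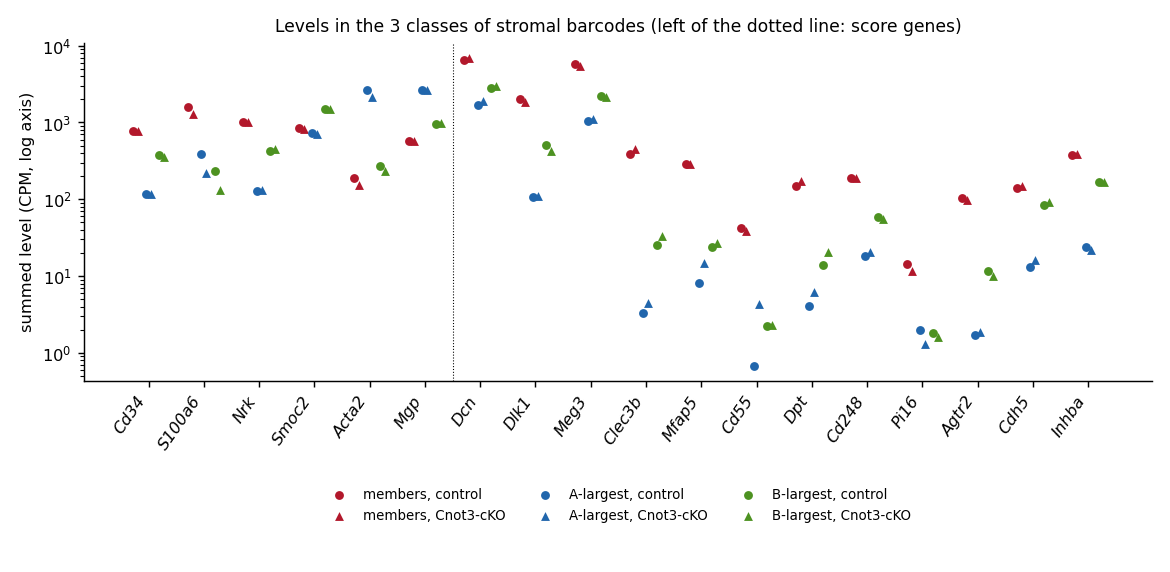
Summed level of 18 genes, in CPM on a log axis, in members, A-largest and B-largest barcodes of the control (circles) and Cnot3-cKO (triangles) library, with score genes left of the dotted line. Members lie above the other classes for *Cd34*, *S100a6*, *Nrk* and for every gene right of the line, and the libraries lie close together, with *S100a6* lower in Cnot3-cKO in all 3 classes.

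The class is a range cut from a score, and barcodes on either side of its edge had like levels. Score C was 2.34 times the next score in the median member and at least 2 times it in 1192 members (57.7%), but under 1.2 times in 239 (11.6%), and 324 stromal barcodes outside the class reached 0.8. The next score was B in 1834 members and A in 231. The 100 members nearest the threshold had 570 CPM of *Cd34*, 1212 of *Dlk1* and 118 of *Clec3b*. The 100 barcodes nearest it on the other side had 562, 1037 and 99.4 CPM of the same genes. *Smoc2*, the gene of score B, was itself at 840 and 811 CPM in members, against 1518 and 1511 in B-largest barcodes.

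Members made up 33.2% of the stromal barcodes in control (1118 of 3369; 31.6 to 34.8) and 26.0% in Cnot3-cKO (947 of 3639; 24.6 to 27.5). The sort by CD9 and THY1 and the depth minimum can set these shares. *S100a6*, which is in score C, was lower in Cnot3-cKO in every class. A-largest barcodes of control had 384 CPM and those of Cnot3-cKO 217, and B-largest barcodes had 233 and 133. With *S100a6* left out of the score, the shares were 36.7% and 31.6%, and with scores scaled within each library they were 30.4% and 28.1%.

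A set of genes known from adventitial fibroblasts described the members beyond the score. Across 12565 genes with at least 100 UMIs over the 3 classes, 5.78% were at least 1.5-fold higher in members than in both other classes in both libraries, and 3.61% were that much lower. The adventitial list has 20 genes, of which 14 were measured, that is, reached 100 UMIs over the 3 classes. A gene could reach this minimum through members alone, and list genes near 0 in all classes dropped out. Of the 14, 10 were higher by the 1.5-fold rule (*Pi16*, *Cd55*, *Dpt*, *Clec3b*, *Gsn*, *Igfbp6*, *Creb5*, *Ackr3*, *Cd248* and *Tnxb*) and 0 lower. The list's median log2 ratio over A-largest barcodes was 2.26 and 1.88 in control and Cnot3-cKO, and over B-largest 1.78 and 1.80, while the medians over all genes lay between 0.06 and 0.08.

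*Clec3b* (tetranectin, a secreted plasminogen-binding lectin; chromosome 9, 123150946 to 123157432) led the genes outside the score. It stood at 394 CPM (384 to 404) in control and 458 (445 to 470) in Cnot3-cKO members. A-largest barcodes had 3.35 and 4.51 CPM, and B-largest barcodes 25.6 and 33.7. *Mfap5*, a microfibril protein gene, was at 284 and 290 CPM in members, against 8.06 and 14.6 in A-largest and 23.6 and 26.7 in B-largest barcodes. *Dpt* (dermatopontin, a matrix protein) was at 150 and 174 CPM, *Cd248* (endosialin, a stromal surface protein) at 187 and 190, and *Cd55* (a complement regulator on the cell surface) at 41.8 and 39.0. *Pi16*, a defining gene of adventitial fibroblasts elsewhere, reached 14.4 and 11.8 CPM. A pair of other genes used to sort such cells were near 0, with *Dpp4* at 0.0688 and 0.0872 CPM and *Ly6a* at 0.894 and 1.40.

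The genes that set members most apart from the other stromal barcodes as 1 pool were *Clec3b*, *Nr0b1*, *Agtr2*, *2900055J20Rik*, *Tppp3*, *Krtdap*, *Cdh13*, *Mfap5*, *Medag* and *Dpt*, by the lower interval limit of the log2 ratio. *Nr0b1*, which encodes the orphan receptor DAX1, was at 34.6 and 35.0 CPM in members, and at most 1.45 CPM in either other class. *Agtr2*, the angiotensin II type 2 receptor gene, was at 104 and 96.7 CPM, with 1.73 and 1.84 in A-largest and 11.7 and 9.89 in B-largest barcodes. *Cd44*, the hyaluronan receptor gene, was at 37.1 and 24.9 CPM in members and at most 3.80 in the other classes. The genes lowest in members were those of contractile A-largest barcodes. *Myh11*, the smooth muscle myosin heavy chain gene, stood at 13.3 and 16 CPM in members and 346 and 375 in A-largest barcodes. *Tnnt2*, a troponin gene, was at 3.44 and 2.70 CPM against 108 and 70.2, and *Myocd*, the smooth muscle coactivator gene, at 1.38 and 0.610 against 31.7 and 29.6.

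Matrix genes divided by kind. Of 19 measured elastic fibre genes, 8 were higher in members (*Fbn1*, *Fbln1*, *Fbln2*, *Efemp1*, *Mfap5*, *Ltbp1*, *Ltbp4* and *Loxl2*) and 1 lower (*Fbn2*, whose protein is the fibrillin of early development). *Fbn1*, the main fibrillin gene, was at 532 and 501 CPM, against 287 and 310 in A-largest and 265 and 270 in B-largest barcodes. *Fbn2* was at 178 and 164 CPM in members and between 268 and 298 in the other classes. *Eln*, the elastin gene, stood highest in A-largest barcodes, at 360 and 390 CPM, with 158 and 141 in members. *Col5a2*, *Col5a3* and *Col12a1*, of 9 measured fibrillar and associated collagens outside the gate, were higher. *Col5a3* was at 126 and 101 CPM in members and at most 33.0 elsewhere. Of 9 small proteoglycan genes, *Lum*, *Prelp* and *Ecm2* were higher. *Lum*, whose product lumican spaces collagen fibrils, was at 441 and 469 CPM, against 44.3 and 65.4 in A-largest and 133 and 156 in B-largest barcodes. Basement membrane genes moved less, with *Lama4* and *Nid2* higher of 13 and 0 lower.

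**Figure D2:**
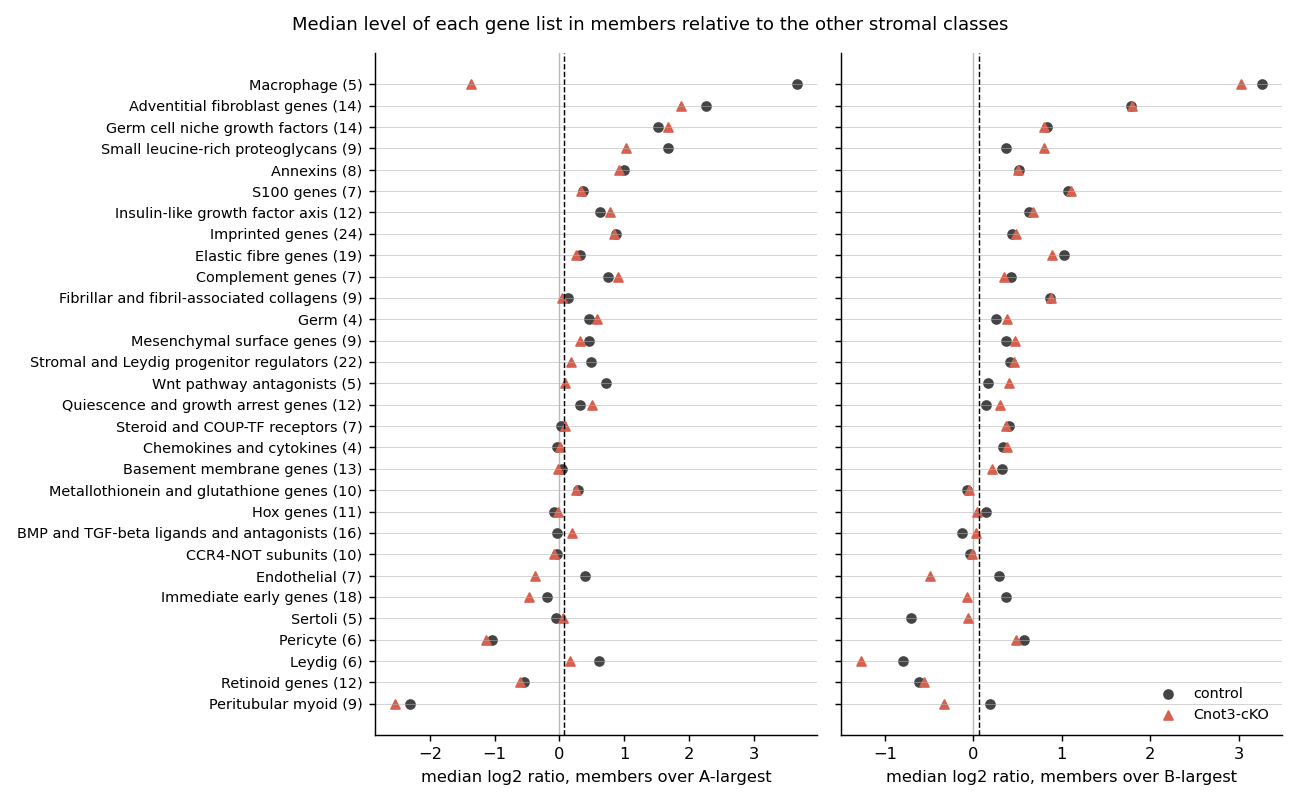
Median log2 ratio of members over A-largest (left) and over B-largest barcodes (right) for each gene list with at least 4 measured genes outside the rule, in the control (circles) and Cnot3-cKO (triangles) library. Numbers in brackets are the measured genes and dashed lines the median over all genes, and adventitial fibroblast genes lie at 1.78 or above against both classes in both libraries, while the Macrophage list, which summed to at most 18.6 CPM in members, lies on both sides of 0 over A-largest barcodes.

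Imprinted genes were a further group. Of 24 measured, 9 were higher in members (*Dlk1*, *Meg3*, *Mirg*, *Cdkn1c*, *Mest*, *Ndn*, *Igf2r*, *Peg10* and *Magel2*) and *Nnat* was lower. *Meg3*, the long noncoding RNA of the *Dlk1* domain, was the fourth most abundant RNA outside the rule, mitochondrial and ribosomal protein genes, at 5713 and 5365 CPM, against 1039 and 1125 in A-largest and 2220 and 2130 in B-largest barcodes. *Cdkn1c*, an inhibitor of cyclin-dependent kinases, was at 359 and 324 CPM, against 32.0 and 35.9 in A-largest and 125 and 120 in B-largest barcodes. *Igf2*, the growth factor gene imprinted beside *H19*, was at only 4.06 and 4.97 CPM, and *H19* itself at 133 and 112.

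Of 14 measured genes of growth factors that act on germ cells and their niche, 8 were higher in members and *Gdnf* was lower. The list's summed level was not highest in members. It was 1216 and 1315 CPM in members, 705 and 819 in A-largest and 1392 and 1500 in B-largest barcodes. *Cxcl12*, a chemokine that holds stem cells in niches, was at 378 and 406 CPM, against 126 and 138 in A-largest and 212 and 224 in B-largest barcodes. *Kitl*, the KIT ligand, was at 58.2 and 69.7 CPM, against 13.9 and 17.0 in A-largest and 25.0 and 31.4 in B-largest barcodes. *Fgf7*, *Hgf*, *Vegfc*, *Nrg1*, *Pdgfa* and *Lif* were higher at levels from 2.44 CPM for *Lif* to 60.7 for *Nrg1*. *Gdnf*, the ligand that maintains spermatogonial stem cells, was at 1.51 and 1.92 CPM in members, against 24.4 and 27.7 in A-largest and 7.74 and 8.65 in B-largest barcodes.

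Of 16 measured BMP and TGF-beta ligand and antagonist genes, 4 were higher in members and 2 lower. *Inhba*, the activin A subunit gene, was at 373 and 390 CPM in members, against 23.7 and 22 in A-largest and 166 and 168 in B-largest barcodes. *Tgfb2* was at 115 and 126 CPM, against 4.87 and 10.7 in A-largest barcodes. *Bmp4* and *Bmp7* were lower, *Bmp7* at 5.09 and 7.50 CPM in members and 68.5 and 66.7 in A-largest barcodes. Of 12 measured retinoid genes, *Aldh1a2* and *Rarres2* were higher and *Aldh1a1*, *Rbp4* and *Dhrs3* lower, so the enzymes that make retinoic acid differed by gene. *Aldh1a1* was at 49.2 and 54.0 CPM in members, against 144 and 158 in A-largest and 203 and 218 in B-largest barcodes, while *Aldh1a2* was at 5.98 and 7.15 CPM and at most 1.06 elsewhere.

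Regulators known from the gonad's mesenchyme mostly stayed within the fold. Of 22 measured regulators of stromal and Leydig progenitors, 4 were higher in members, among them *Nr2f1*, *Lhx9* and *Osr1*. There were 3 lower, *Osr2*, *Tcf4* and *Heyl*. *Osr1* was at 130 and 125 CPM, against 12.3 and 15.8 in A-largest and 48.9 and 47.7 in B-largest barcodes, and its relative *Osr2* was at 130 and 134 CPM in members but 382 and 418 in A-largest barcodes. Of the 10 Leydig cell genes, 7 were under 5 CPM in members of both libraries. *Cyp11a1*, the enzyme gene of the first step of steroid synthesis, had 0 UMIs in control members, which allows up to 3 counts, and was at 0.174 CPM in Cnot3-cKO, and *Star*, which brings cholesterol into mitochondria, was at 1.38 and 0.785 CPM. The list still summed to 214 and 223 CPM, close to the 229 and 222 in A-largest barcodes and below the 277 and 285 in B-largest. Most of it came from *Fdx1* (133 and 131 CPM), a mitochondrial electron carrier, *Scarb1* (42.6 and 47.9), a lipoprotein receptor, and *Nr5a1* (33.9 and 39.7), a nuclear receptor. Whether these levels reflect the Leydig lineage was not tested. 

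Markers of other cell types differed by list. Peritubular myoid genes were present, at a sum of 751 CPM in control and 715 in Cnot3-cKO members with only 2 of 10 under 5 CPM. The sum was 5047 and 4532 in A-largest barcodes and 849 and 810 in B-largest. It includes *Acta2*, a gene of score A, so the rule set part of the contrast with A-largest barcodes. Among the myoid genes were *Tpm2* (209 and 208 CPM) and *Mylk* (156 and 160), contractile genes used by many cells. *Acta2* was present too, with a UMI in 44.5% of control and 38.2% of Cnot3-cKO members at 8000 UMIs. The *Acta2* shares were 98.4% and 96.8% in A-largest and 48.0% and 44.3% in B-largest barcodes. Pericyte genes summed to 78.2 and 72.5 CPM, mostly *Cspg4* (48.0 and 44.2), with *Rgs5* at 0.138 and 0.0872. Macrophage genes summed to 18.6 CPM in control and 11.9 in Cnot3-cKO members, over 10 genes of which 9 and all 10 were under 5 CPM. Germ cell genes, which include *Ddx4* and *Dazl* that the gate limited, summed to 27.0 and 19.2 CPM, and mesothelial genes to 0.481 and 3.92. Of the 8 endothelial genes, *Cdh5* (VE-cadherin) stood at 139 and 151 CPM and *Tek* (the angiopoietin receptor) at 6.60 and 8.11, while *Pecam1*, which defines endothelium, was at 1.10 and 0.785. At 8000 UMIs, *Cdh5* had a UMI in 63.3% (60.4 to 66.2) of control and 62.7% (59.6 to 65.8) of Cnot3-cKO members. It was not particular to members, with 46.4% and 45.8% in B-largest, 7.75% and 10.3% in A-largest and 0.537% and 0.503% in Sertoli barcodes. Unthinned, the *Cdh5* shares were 78.5% and 77.6% in members, 64.0% and 60.3% in B-largest barcodes and 0.894% and 1.06% in Sertoli barcodes. *Pecam1* had a UMI in 0.716% and 0.634% of members, below its 2.06% and 1.84% in Sertoli barcodes, so it stood at background. *S100b*, a Schwann cell marker elsewhere, was at 157 and 163 CPM, with *Sox10* at 0 UMIs in control and 0.174 CPM in Cnot3-cKO. At 8000 UMIs, *S100b* had a UMI in 66.0% and 64.8% of members and in 39.2% and 35.4% of B-largest barcodes. *Cd9*, one target of the sort, was at 174 and 155 CPM in members, against 30.7 and 25.1 in A-largest barcodes. Its share with a UMI at 8000 UMIs was 59.1% and 55.2% in members and 23.5% and 19.8% in B-largest barcodes. Sertoli barcodes had 49.6% and 46.3%. *Thy1*, the other target, was at 0.550 and 0.523 CPM.

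Members were not uniform. When the stromal barcodes were clustered without the genes of the rule, 1130 members fell in 1 cluster (cluster 3) that held 96.4% members and was led by *Clec3b*, *Nr0b1*, *Mfap5* and *Cd55*, and 663 fell in another (cluster 1) of 1345 barcodes that also held 646 B-largest barcodes. Cluster 3 took 56.0% of control members (53.0 to 58.9) and 53.2% of Cnot3-cKO members (50.0 to 56.4), and cluster 1 took 29.8% (27.1 to 32.6) and 34.8% (31.8 to 38.0). The genes with the highest fold in cluster 1 were the haemoglobin genes *Hbb-bs*, *Hba-a1*, *Hba-a2* and *Hbb-bt*, which are red blood cell genes, followed by *Fcgr2b*, *Aqp5* and *Kcnk3*. The remaining members were scattered over other clusters, with 112 in a cluster mostly of B-largest barcodes, 57 and 46 in a pair of clusters led by cell cycle genes, 25 in a cluster whose median depth was 24956 UMIs and whose leading genes included *Clu*, and 8, all from Cnot3-cKO, in a cluster led by *Ramp1*. Since the clusters were formed on expression in these same barcodes, the contrast between them is a description.

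The adventitial genes were concentrated in cluster 3. Of 10188 genes measured in the members of both clusters, 4.76% were at least 1.5-fold higher in members of cluster 3 in both libraries and 2.5% that much lower. *Clec3b* was at 615 and 751 CPM in cluster 3 and 113 and 151 in cluster 1. *Cd55* was at 65.9 and 65.8 against 9.53 and 9.59, and *Pi16* at 22.7 and 19.4 against 3.91 and 2.33. Of 14 measured adventitial genes, 12 were higher in cluster 3 and 0 lower, and of 18 measured elastic fibre genes 9 were higher and 0 lower. Of 7 measured peritubular myoid genes outside the rule, 2 were higher in cluster 3 (*Tagln* and *Des*) and 1 lower (*Myh11*). *Des* was at 88.5 and 95.9 CPM in cluster 3 and 50.3 in cluster 1 of both libraries. *S100a6* was at 2191 and 1864 CPM in cluster 3 and 636 and 533 in cluster 1, whereas *Nrk* was alike, at 1085 and 1058 against 1062 and 1080. Cluster 1 members had more *Vcam1*, an adhesion molecule gene (209 and 211 CPM against 55.4 and 55.6), *Igf1* (869 and 853 against 418 and 441), *Bmp2* (18.1 and 17.9 against 4.01 and 3.89) and *Heyl*, a Notch target (18.1 and 20.5 against 3.13 and 2.20). *Cyp26b1*, whose enzyme degrades retinoic acid, was at 141 CPM in cluster 1 of both libraries and 51.1 and 54.4 in cluster 3.

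**Figure D3:**
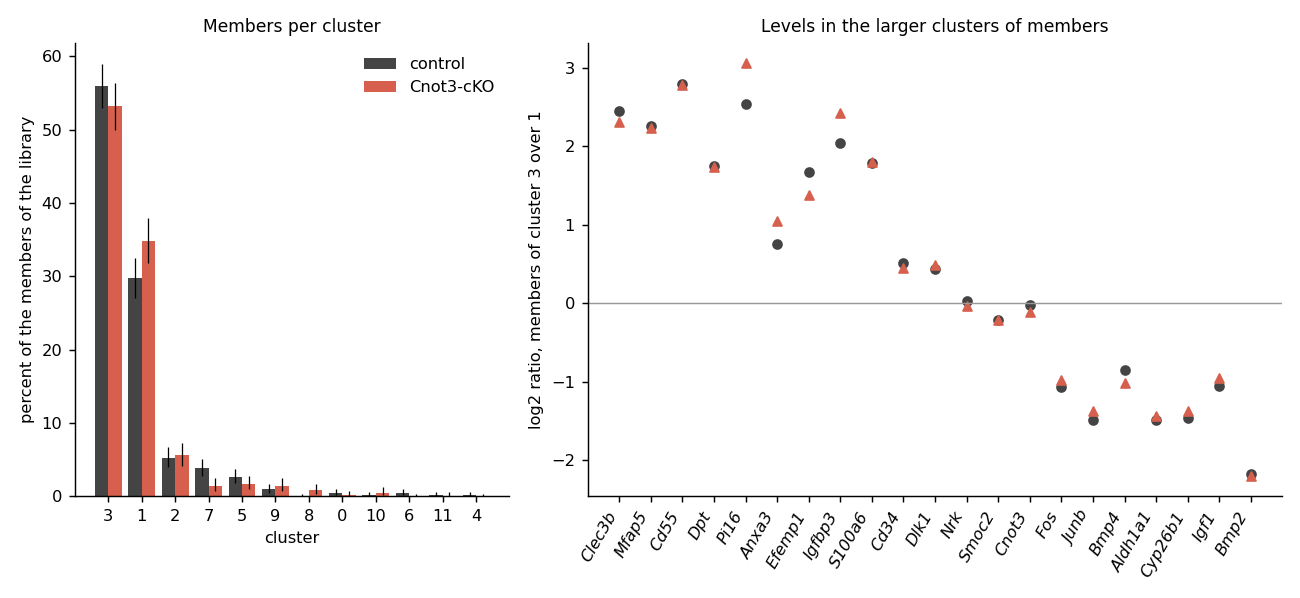
Left, percent of the members of each library in each cluster of stromal barcodes, with 95% Clopper-Pearson intervals, and right, log2 ratio of members of cluster 3 over members of cluster 1 for 21 genes in control (circles) and Cnot3-cKO (triangles). Clusters 3 and 1 hold most members of both libraries, and *Clec3b*, *Mfap5* and *Cd55* lie above 2 while *Bmp2* lies below -2 in both.

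The targeted gene was looked at next. *Cnot3* (chromosome 7, 3645268 to 3661109, plus strand) stood at 46.8 CPM (43.4 to 50.5; 681 UMIs) in control and 42.1 CPM (38.4 to 46.0; 483 UMIs) in Cnot3-cKO members. On the log2 scale Cnot3-cKO over control gave -0.15 (-0.32 to 0.02) in members, -0.02 in A-largest and 0.10 in B-largest barcodes. The difference was within counting error, and since the tags lie at the 3′ end, transcripts that lack the deleted part could still be counted. Across the 10 measured CCR4-NOT subunits the median was 0.01, and 0 of them were past 1.5-fold.

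Most genes stood at like levels in both libraries. Over 10525 genes with at least 100 UMIs in members, the median log2 ratio was -0.02, and 5% of the genes lay below -0.31 and 5% above 0.32. At least 1.5-fold higher in Cnot3-cKO were 93 genes (0.884%), and at least 1.5-fold lower were 54 (0.513%). No gene of the adventitial, elastic fibre, collagen, imprinted, annexin or S100 lists was among them. At these low shares over all genes, few genes of lists this short would be. Of the lists with at least 4 measured genes, the medians ran from -0.29 for S100 genes to 0.16 for complement genes, apart from the immediate early and the Sertoli genes.

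Immediate early genes are those that cells transcribe within minutes of a stimulus without new protein. Of 18 measured, 9 were at least 1.5-fold higher in Cnot3-cKO members and 0 lower, and 17 were above 0, with a median log2 ratio of 0.68. The list's median was 0.99 in A-largest and 1.04 in B-largest barcodes, so the higher levels were not limited to members. Within cluster 3 the median was 0.40 and within cluster 1 it was 0.88. *Fosb* (an AP-1 subunit; chromosome 7, 19302696 to 19310051) was at 36.3 CPM (33.3 to 39.6) in control and 177 (170 to 185) in Cnot3-cKO members, a log2 ratio of 2.29 (2.15 to 2.43). *Fos*, its relative, was at 67.9 CPM (63.7 to 72.3) in control and 310 (300 to 320) in Cnot3-cKO members, a log2 ratio of 2.19 (2.09 to 2.29). *Zfp36*, whose protein binds AU-rich mRNAs and recruits the CCR4-NOT complex to them, was at 13.8 and 61.0 CPM, a log2 ratio of 2.14 (1.91 to 2.37). *Junb*, another AP-1 subunit, was at 31.2 and 121 CPM, a log2 ratio of 1.96 (1.81 to 2.12). *Btg2*, an antiproliferative gene whose protein binds the CCR4-NOT complex, *Egr1*, *Ier2*, *Nr4a1* and *Jun* had log2 ratios of 1.14, 1.12, 1.09, 0.84 and 0.84. *Klf2*, *Klf4*, *Klf6*, *Hspa1a*, *Hspa1b* and *Ier3* lay between -0.20 and 0.27.

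The same genes had an order of levels between classes. *Fos*, *Fosb*, *Junb*, *Egr1*, *Ier2*, *Nr4a1* and *Btg2* were lower in members than in both other classes in both libraries, and *Klf2*, *Klf4*, *Klf6*, *Hspa1a* and *Hspa1b* were higher. *Btg2* was at 43.8 and 96.4 CPM in members and 413 and 951 in A-largest barcodes. *Klf4*, a zinc finger factor, was at 188 and 215 CPM in members and 17.7 and 42.7 in A-largest barcodes. At 8000 UMIs, *Fos* had a UMI in 25.0% of control and 53.5% of Cnot3-cKO members (unthinned 31.5% and 58.0%). The median member had 0 thinned *Fos* UMIs in control and 1 in Cnot3-cKO, and the 95th percentiles were 3 and 11. Of Sertoli barcodes, 48.7% and 61.9% had a *Fos* UMI at the same depth.

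Other values moved with the same contrast. Empty barcodes of at most 100 UMIs, which hold free RNA, had 125 and 422 CPM of *Fos*, and 2.21% and 2.28% of the members' UMIs were estimated to be free RNA. That estimate used only the Sertoli genes of the stromal gate, whose share the gate limited in members, so it rests on values the rule bounded. With the empty profile subtracted on the same basis, the immediate early median was 0.63. In Sertoli barcodes *Fos* was at 194 and 317 CPM, a log2 ratio of 0.71, and *Zfp36* had 0.19. Sertoli genes were also higher in Cnot3-cKO members, 8 of 9 measured past 1.5-fold with a median log2 ratio of 0.77. The stromal gate had limited *Cst12*, *Cst9*, *Rhox8* and *Aard*, which are among the 8, so the rule bounded their levels in members. *Sox9*, *Clu*, *Inha* and *Amhr2*, outside the gate, were the others past 1.5-fold. The list summed to 123 and 190 CPM in members and 3884 and 6116 in empty barcodes. *Clu*, a secreted chaperone gene abundant in Sertoli cells, was at 17.5 and 31.3 CPM in members and 689 and 1064 in empty barcodes. All of this lies between 1 pair of libraries, so genotype, sample handling and library preparation cannot be told apart, and their part in the result was not tested.

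**Figure D4:**
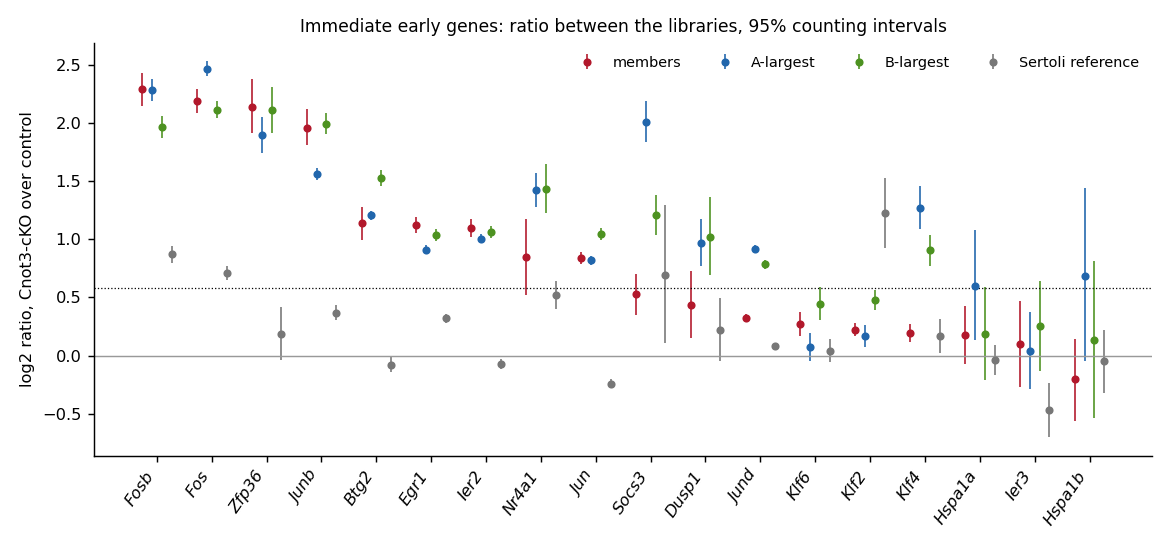
Log2 ratio of Cnot3-cKO over control with 95% counting intervals for the 18 measured immediate early genes in members, A-largest, B-largest and Sertoli barcodes, with the dotted line at 1.5-fold. *Fosb*, *Fos*, *Zfp36* and *Junb* lie at 1.96 or above in members, between 1.56 and 2.46 in the other stromal classes, and at lower values in Sertoli barcodes.

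The bases just upstream of the start sites of the 4 immediate early genes with the highest ratio are shown because these genes moved together. The sequences are from RefSeq on GRCm38.p6, each the 150 bases before the annotated start, 5′ to 3′ along the gene, with matches in capitals to TGACG on either strand, the first 5 letters of the cAMP response element, or to the CArG box of serum response factor. *Fosb* is on the minus strand of chromosome 7 (chr7:19310046-19310195), *Fos* on the plus strand of chromosome 12 (chr12:85473740-85473889), *Zfp36* on the minus strand of chromosome 7 (chr7:28379229-28379378) and *Junb* on the minus strand of chromosome 8 (chr8:84978749-84978898).
Fosb: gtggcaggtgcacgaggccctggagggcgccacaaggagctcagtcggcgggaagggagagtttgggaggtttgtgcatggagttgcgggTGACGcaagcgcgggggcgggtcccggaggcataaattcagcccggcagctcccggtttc
Fos: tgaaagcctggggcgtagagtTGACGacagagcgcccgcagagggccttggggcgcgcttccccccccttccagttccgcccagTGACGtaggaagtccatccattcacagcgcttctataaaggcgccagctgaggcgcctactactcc
Zfp36: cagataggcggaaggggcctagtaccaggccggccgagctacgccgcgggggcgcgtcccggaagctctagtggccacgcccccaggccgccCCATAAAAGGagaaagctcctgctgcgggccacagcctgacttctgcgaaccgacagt
Junb: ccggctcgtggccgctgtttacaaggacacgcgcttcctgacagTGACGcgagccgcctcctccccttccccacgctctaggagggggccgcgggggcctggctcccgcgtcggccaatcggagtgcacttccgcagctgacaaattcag

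TGACG was found in *Fosb*, *Fos* and *Junb*, and in 4 of the 7 past-fold immediate early genes whose promoter window was examined, the fourth being *Nr4a1*. It is in 13.3% of all 32851 promoter windows of the same length. The CArG box was found in *Zfp36* and is in 0.916% of all windows. The full element TGACGTCA (1.36% of windows) and the AP-1 site TGAGTCA (2.84%) were in none of the 7. The windows of *Egr1* and *Ier2* were not examined, so nothing is said of their motifs. A match is a run of letters and not a measured site.

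Beyond these lists, *Slc38a9*, a lysosomal arginine sensor gene, was at 38.4 and 123 CPM in the 2 libraries, a log2 ratio of 1.68 (1.53 to 1.82), with 1.55 in A-largest, 1.33 in B-largest and 1.0 in Sertoli barcodes. *Igfbp3*, a binding protein of insulin-like growth factors, was at 73.0 and 147 CPM, a log2 ratio of 1.01 (0.90 to 1.12), with 2.46 and 1.01 in the other classes. *Mettl7a1* was higher at low levels, at 4.06 and 12.2 CPM, a log2 ratio of 1.59 (1.14 to 2.05). *Tgfbi*, a matrix gene that answers to TGF-beta, was at 18.2 and 33.6 CPM, a log2 ratio of 0.88.

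Lower in Cnot3-cKO members were *H2-D1*, *Fkbp6*, *Epha5*, *Fgfr1*, *Neto2*, *Clasrp*, *Uchl1*, *Crip1*, *Dazl* and *Map6*. *H2-D1*, a class I histocompatibility gene, was at 34.0 CPM (31.1 to 37.2) in control and 13.3 (11.2 to 15.5) in Cnot3-cKO, that is -1.36 on the log2 scale (-1.63 to -1.10), with -0.56 in A-largest and -0.63 in B-largest barcodes. Genes of the H2 family are near-identical, so this count is uncertain. *Fgfr1*, a fibroblast growth factor receptor gene, was at 146 CPM (140 to 153) in control and 74.8 (69.9 to 80.0) in Cnot3-cKO members, a log2 ratio of -0.97 (-1.08 to -0.85), with -0.99 in A-largest and -1.0 in B-largest barcodes. Sertoli barcodes showed the same direction, with -2.17 for *H2-D1* and -1.13 for *Fgfr1*. *Clasrp*, a splicing regulator gene, was at 33.9 and 17.7 CPM, a log2 ratio of -0.94, and it too had values near -1 in the other classes, at -1.03 and -1.07. *Crip1*, a LIM protein gene of the *Clec3b*-led cluster, was at 265 and 165 CPM, a log2 ratio of -0.68. *Dazl*, a germ cell gene that the gate used, was at 9.90 and 5.06 CPM.

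**Figure D5:**
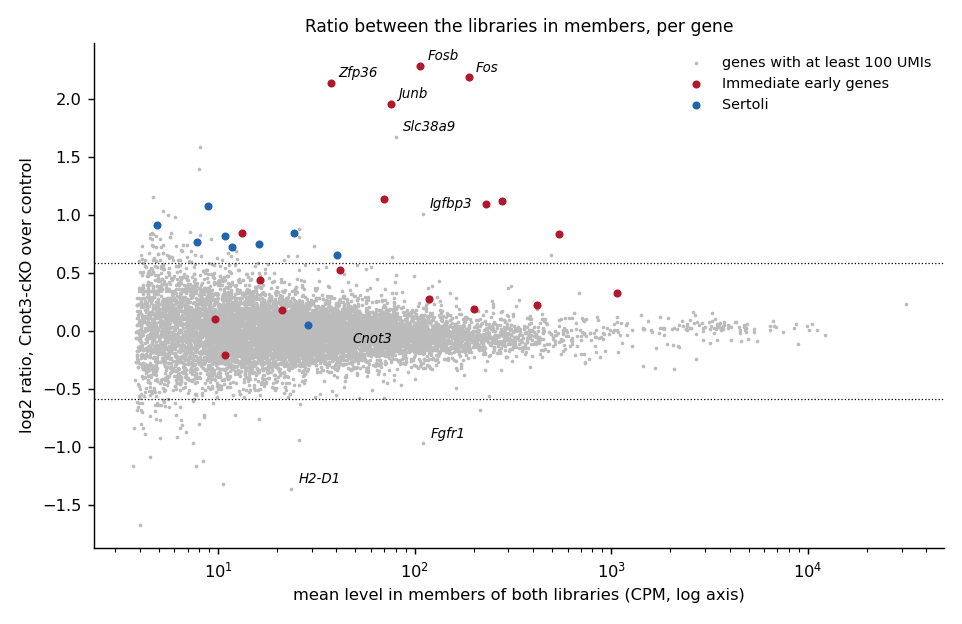
Log2 ratio of Cnot3-cKO over control in members against the mean level (CPM, log axis) for the 10525 genes with at least 100 UMIs, with immediate early genes in red and Sertoli genes in blue and dotted lines at 1.5-fold. Most genes lie between the lines, *Fosb*, *Fos*, *Zfp36* and *Junb* at the top, and *H2-D1* and *Fgfr1* below.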

How the data were processed

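The authors deposited whole UMI counts for each barcode, from 10x Genomics 3′ libraries and, per the submitters' notes, Cell Ranger 3.0.1. Per the study's methods, reads were demultiplexed with its mkfastq command and genes were annotated with Ensembl. No cell calls were supplied, so barcodes with at least 8000 UMIs were used. Members and gene lists were chosen with earlier results of these data known. UMIs were summed per class and library and given as CPM. Levels have exact Poisson intervals, ratios exact conditional intervals and shares exact Clopper-Pearson intervals at 95%, and a count of 0 allows up to 3 counts. Ratios needed at least 100 UMIs, and 1.5-fold was the threshold. No test was run, since each genotype has 1 library. PCR duplicates are removed by UMIs. Doublets (Scrublet, scanpy 1.11.5) stayed in. Clusters used 2000 variable genes, 30 principal components, 15 neighbours and Leiden resolution 0.5. Sertoli barcodes held at least 1% Sertoli genes and under 0.2% of the stromal genes. Besides the lists and score genes, the text names the 15 most abundant genes, the 20 highest and 10 lowest against other classes and 10 each way between libraries, or some of them. Others were chosen after their values were seen. Some genes are not reported here. Positions are from GENCODE M21 (99.8% of 30828 identifiers matched). The ratio step was tested on simulated data.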

Additional observations from a re-analysis of the deposited data

Results flagged for a closer look

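In 4 genes of the lists the ratio of Cnot3-cKO over control was at least 0.32 on the log2 scale in opposite directions in members and in another stromal class, with both counting intervals clear of 0. The difference was not tested in any of them. *Igfbp5*, a binding protein of insulin-like growth factors, had a log2 ratio of 0.57 in members and -0.56 in A-largest barcodes. Within clusters 3 and 1, which hold most members, *Igfbp5* had -0.07 and -1.30, and these clusters held 127 and 34 of its 324 UMIs in control members and 90 and 13 of 379 in Cnot3-cKO members, so the value over all members came from those in other clusters. *Col12a1*, a fibril-associated collagen gene, had -0.40 in members, 1.05 in A-largest and 0.37 in B-largest barcodes, and it was below 0 in cluster 3 (-0.34) and in cluster 1 (-0.68). *Aspn*, the gene of the proteoglycan asporin, had -0.55 in members and 1.61 in A-largest barcodes, and -0.61 and -0.23 in clusters 3 and 1. *Lyz2*, a macrophage lysozyme gene, had -0.87 in members and 2.68 in A-largest barcodes, at levels of at most 9.71 CPM. Clusters 3 and 1 held only 10 and 4 of its 130 UMIs in control members and 4 and 6 of 56 in Cnot3-cKO members, so this value too came from the few members elsewhere. A cluster of 15 barcodes with *Lyz2* among its leading genes held 3 members. A cluster of 80 barcodes led by *Ramp1*, *Angptl7* and *Fam180a* held 65 A-largest barcodes and 8 members, all 8 from Cnot3-cKO.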

How the results depend on the processing

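Over 20 alternatives, 120 of 140 recomputed main values stayed within their interval or within 1.5 times the main count, and 20 moved. The members' shares of stromal barcodes were 30.8% in control and 19.8% in Cnot3-cKO with at least 12000 UMIs, 19.9% and 14.4% with score C at least 2 times the next score, 30.4% and 28.1% with scores scaled within each library, and 36.7% and 31.6% with *S100a6* left out of the score. The last of these and the single-cluster values were chosen after seeing the data. The counts of genes past the fold were 93 higher and 54 lower. Those lower were 85 with at least 12000 UMIs. The counts were 298 and 234 with at least 30 UMIs per gene, 1310 and 1331 with at least 1 UMI in each library, 499 and 480 at a fold of 0.32 on the log2 scale, and 14 and 7 at 2-fold. The immediate early median was 0.84 with at least 12000 UMIs, 0.40 in cluster 3 alone and 0.88 in cluster 1 alone. The *Cnot3* ratio stayed within its interval wherever it was recomputed. Of 2264 list medians, 115 moved and 9 changed sign, 8 in the Macrophage list and 1 in the Leydig list. Macrophage medians over A-largest barcodes became -1.14 in control with at least 12000 UMIs, -0.38 in control at 2 times the next score and 0.26 in Cnot3-cKO after thinning. Over B-largest barcodes they became -0.049 in control and -0.70 in Cnot3-cKO with at least 12000 UMIs, -0.19 in Cnot3-cKO without doublets, and -1.25 in control and -0.46 in Cnot3-cKO at 2 times the next score. The Leydig median over A-largest barcodes became -0.087 in control at 2 times the next score. The cause was not tested. No paired analysis was possible because each genotype has 1 merged library, and no replicate could be left out. Genes under 100 UMIs in members have wide intervals.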
